A study of Mus musculus with 6 samples.

Results

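The kinetochore is the protein assembly that joins each chromosome to the mitotic spindle. Its inner layer sits on nucleosomes that carry the histone variant CENP-A, its outer layer grips microtubules, and the spindle checkpoint uses unattached kinetochores to hold back the anaphase-promoting complex (APC/C), the ubiquitin ligase that triggers chromosome separation. Most of these genes are read out late in the cell cycle, so in cultured stromal cells their mRNA is mainly known as a mark of cycling cells. The 45 genes described here were taken by symbol from a list of centromere, kinetochore, checkpoint, chromosomal passenger and APC/C activator genes, and all 45 were found among the 53735 features of the table and had enough reads to be tested.

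The series asks what phagocytosis does to marrow cells of the mesenchymal and osteoblast lineage. Wild-type mouse marrow stromal cells, sorted as CD51+ and negative for CD45, CD31 and blood lineage markers, were grown at 2% oxygen to passage 2 or 3. The fed group (3 libraries) was kept for 24 h at 5% oxygen with 5000000 dye-labelled apoptotic mouse thymocytes per well, and cells that carried the dye were sorted. The control group (3 libraries) received no thymocytes and was sorted too; the labels do not state the oxygen of its wells over those 24 h, nor the strain or age of the mice. Stranded mRNA libraries held 19069074 to 22410047 counts, with similar depth in both groups. Whether replicates are separate cultures or mice is not stated by the labels, and each p-value is therefore set against a spread among libraries that may be technical.

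Kinetochore and checkpoint genes rose together in the fed cells. At an adjusted p under 0.05 by edgeR's quasi-likelihood test, 40 of the 45 members were higher and 0 were lower, while 20.5% of the 13092 genes tested were higher and 19.0% lower (39.5% in either direction). None of the 45 was lower at an unadjusted p under 0.05 either, and DESeq2 and limma-voom also called 0 lower, with 41 and 40 higher. The changes were small: log2 fold changes ran from 0.14 (Cenpb) to 0.74 (Aurkb), with a median of 0.51 over the 45 members and -0.01 over all genes tested. At least 1.5-fold was reached by 13 members, against 2.77% of all genes. Every fed library lay above every control library for 41 members, a pattern that 25.1% of all genes shared.

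In CPM (a gene's counts as parts of 1000000 counts of the library, after TMM scaling), the members summed to 1859, 1909 and 1944 in the control libraries and to 2546, 2661 and 2528 in the fed libraries, a ratio of means of 1.35. Within the fed group, replicate 2 was the highest library for 35 of the 45 members. Among controls, replicate 3 was the highest for 24 members. In bulk RNA a larger share of cells late in the cell cycle and more of each mRNA per cell cannot be told apart. Feeding and the sort for dye-carrying cells went together, so their parts cannot be told apart either.

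**Figure D1:**
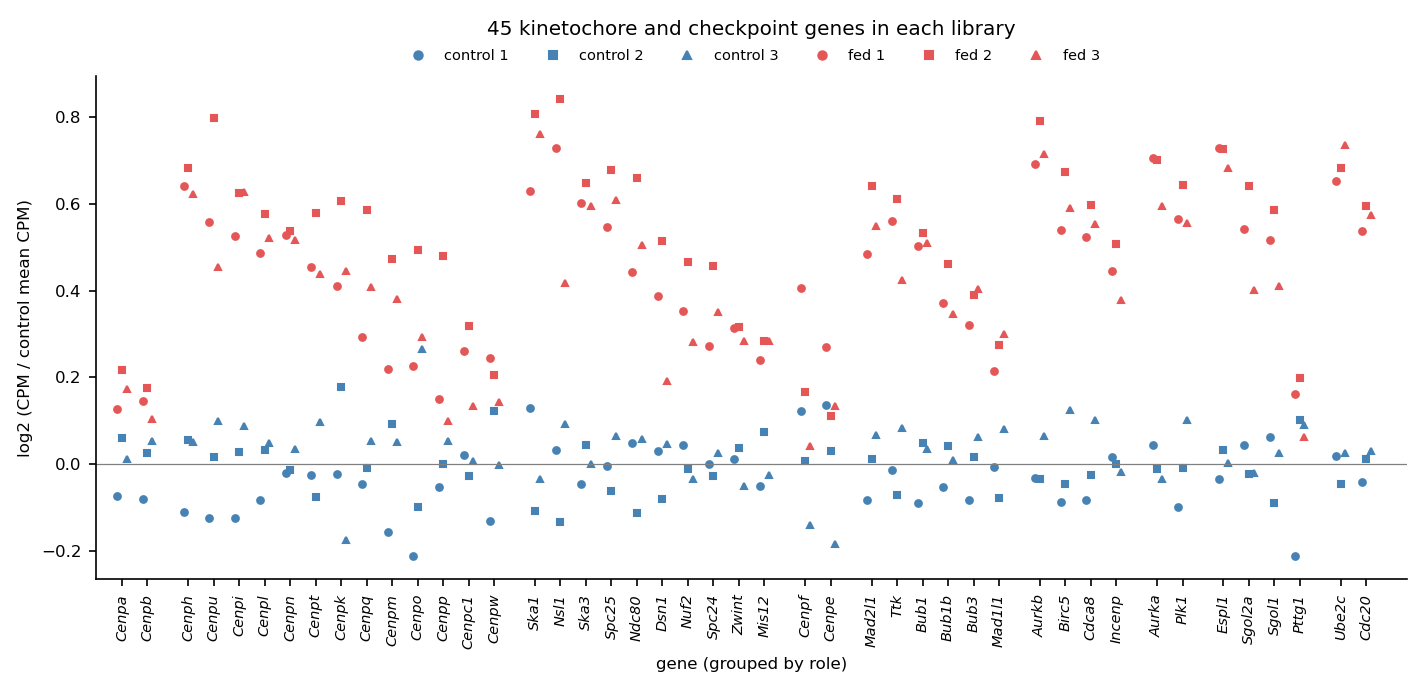
CPM of the 45 members in each of the 6 libraries, as log2 of the ratio to the gene's control mean (y axis), with genes grouped by role (x axis); blue points are control and red points fed libraries, and the symbol gives the replicate. Red points lie clear of blue points for 41 members, and the groups meet for Cenpo, Cenpf, Cenpe and Pttg1.

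Markers of other cells were examined because the fed cultures had held thymocytes. Of 16 thymocyte markers, Cd3g, Rag2, Ptcra and Cd2 had no read in any library, where a count of 0 in the shallowest library allows up to 0.158 CPM (3 counts, counting error only). Low reads of other thymocyte genes were seen in every fed library: Cd8a (1, 1 and 3 counts), Cd8b1 (3, 2 and 2), Dntt (5, 1 and 3), Ptprc (5, 2 and 3) and Rag1 (7, 6 and 12). In controls Cd8a, Cd8b1 and Dntt had no read, Ptprc had 0, 1 and 0 counts and Rag1 had 0, 2 and 1. Other thymocyte genes did not follow this pattern. Lck had 8, 11 and 15 counts in controls and 7, 4 and 12 in fed cells, and was not called. Themis had 1, 1 and 1 counts in controls and 0, 0 and 1 in fed cells. Cd3d had 1 count, in control replicate 2. Cd3e and Cd4 had reads in fed replicate 1 only (2 and 3 counts), and Bcl11b had 0, 1 and 0 counts in controls and 5, 1 and 1 in fed cells. The thymocyte list summed to 3.07 to 3.42 CPM in controls and 3.13 to 4.67 CPM in fed cells, most of it Tcf7, which had 2.27 to 2.69 CPM in controls and 2.35 to 3.04 CPM in fed cells. Macrophage markers (12 genes, Fcgr1 at 0 throughout) summed to 14.1 to 15.3 CPM in controls and 20.3 to 22.0 CPM in fed cells. Lyz2 (mean 3.32 CPM in controls and 7.47 CPM in fed cells) and Cd14 (4.28 and 5.36 CPM) were called higher. Csf1r (mean 5.78 CPM in controls and 5.40 CPM in fed cells) and Cd68 (1.14 and 1.30 CPM) were not called. C1qa, C1qb, C1qc and Adgre1 had no read in any control and 7, 4 and 7, then 4, 3 and 5, then 10, 6 and 9, then 5, 3 and 3 counts in the fed libraries. Endothelial markers (8 genes, with Cdh5, Emcn, Cldn5 and Tie1 at 0) summed to 5.79 to 6.11 and 4.05 to 5.40 CPM. Of 12 stromal markers, Lepr was low (3.57 to 4.44 CPM over all libraries) and the other 11 had at least 23.3 CPM in every library. In fed cells 7 of the 12 fell, among them Thy1, Pdgfrb and Pdgfra, while 1 rose. The part of the thymocyte, macrophage and stromal shifts in the kinetochore result was not tested.

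Promoter sequence was examined because the members moved together. Many mitotic genes carry the word TTTGAA, the cell cycle genes homology region bound by the DREAM and MYB-MuvB complexes, beside CCAAT boxes, the sites of NF-Y. RefSeq promoters on GRCm38.p6 (250 bases before to 50 after the start) were held for 40 members. Aurkb, Ska1, Nsl1, Incenp and Spc24 had none. TTTGAA, on either strand, was present in 17 of the 40 (42.5%) and in 20.2% of all 27025 genes with a promoter. Within 50 bases of the start it was present in 16 (40.0%), against 5.72% of all genes. CCAAT, on either strand, was present in 28 (70.0%, all genes 41.1%), and both words in 15 (37.5%, all genes 7.97%). A match is a description of the letters and not a shown binding site.

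The following 30-base stretches show the word, in capitals, in 5 members with large fold changes and in Cenpf and Cenpw, which carried it and were not called. They are written 5′ to 3′ on the gene's strand, where TTCAAA is TTTGAA on the opposite strand; in Cenpw the word shares a base with a CCAAT.
Espl1, chr15:102296254-102296283, plus strand: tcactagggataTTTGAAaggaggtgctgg
Ube2c, chr2:164769888-164769917, plus strand: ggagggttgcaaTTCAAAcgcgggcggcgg
Aurka, chr2:172370521-172370550, minus strand: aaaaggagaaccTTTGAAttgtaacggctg
Plk1, chr7:122159453-122159482, plus strand: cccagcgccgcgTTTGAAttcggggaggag
Cdc20, chr4:118437344-118437373, minus strand: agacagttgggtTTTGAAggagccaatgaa
Cenpf, chr1:189688067-189688096, minus strand: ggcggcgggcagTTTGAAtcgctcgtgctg
Cenpw, chr10:30200548-30200577, minus strand: tccggcggccaaTTCAAAtcgaccactcgg

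Pairs of CCAAT boxes, a common arrangement ahead of mitotic genes, are shown for 3 members in the 100 bases before the start, with CCAAT in capitals.
Aurka, chr2:172370571-172370670, minus strand: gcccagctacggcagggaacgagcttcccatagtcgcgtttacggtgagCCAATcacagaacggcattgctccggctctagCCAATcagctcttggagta
Spc25, chr2:69206214-69206313, minus strand: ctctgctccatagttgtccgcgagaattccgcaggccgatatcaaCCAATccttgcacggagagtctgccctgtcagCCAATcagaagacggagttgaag
Ttk, chr9:83834589-83834688, plus strand: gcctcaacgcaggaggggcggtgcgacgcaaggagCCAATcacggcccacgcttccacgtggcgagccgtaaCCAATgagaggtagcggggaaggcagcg

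The 17 members with TTTGAA had a median log2 fold change of 0.54 (range 0.17 to 0.71, 15 called higher) and the 23 without it a median of 0.37 (range 0.14 to 0.65, 20 called higher). These are descriptions, and the ranges overlap over most of their length. The split leaves out the members without a promoter entry, among them Aurkb (0.736) and Ska1 (0.735), the largest folds of all members. Neither word was found in the windows of 10 members, which ran from Cenpb and Pttg1, with the smallest fold changes of all, to Birc5, which rose by 0.60.

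At the centromere itself the changes were among the smallest. Cenpa encodes the histone H3 variant that marks the centromere (chromosome 5, 30666777 to 30674830) and had 65.7, 72.1 and 69.7 CPM in controls and 75.6, 80.4 and 78.0 CPM in fed cells. The groups did not overlap, although the fed mean was only 1.13 times the control value (log2 fold change 0.17 ± 0.044 (SE), adjusted p = 0.0037 by edgeR). Cenpb, which binds a short box in centromeric satellite DNA, had 204, 220 and 224 CPM in controls and 239, 244 and 232 CPM in fed cells. Its fold was the smallest of all members (log2 0.14 ± 0.040, adjusted p = 0.00768), and with control replicate 1 left out it missed the threshold (adjusted p = 0.0524).

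Inner kinetochore subunits form the constitutive network that stays on the centromere through the cycle, and 11 of its 13 members here rose. Cenph, of the subcomplex with CENP-I, CENP-K and CENP-M, had 8.29, 9.30 and 9.27 CPM in controls and 14.0, 14.4 and 13.8 CPM in fed cells (log2 fold change 0.65 ± 0.081, adjusted p = 2.28e-06). Cenpi had 24.6, 27.4 and 28.5 CPM in controls and 38.6, 41.4 and 41.5 CPM in fed cells. For both genes the fed libraries stood well apart from the controls. The other subunits of that subcomplex, Cenpk and Cenpm, rose by 0.49 and 0.36 on the log2 scale, and Cenpl and Cenpn, whose products pair with each other, both rose by 0.53.

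Within the CENP-O group, Cenpu rose most, from 5.19, 5.71 and 6.06 CPM to 8.33, 9.84 and 7.75 CPM (log2 fold change 0.61 ± 0.11, adjusted p = 0.000239). Cenpq rose by 0.44. Cenpo was called at 0.35 ± 0.11 (adjusted p = 0.0235), but control replicate 3 at 14.1 CPM lay above fed replicate 1 at 13.7 CPM. Cenpo missed the threshold when control replicate 1 (adjusted p = 0.0805), control replicate 2 (0.0922), fed replicate 2 (0.104) or fed replicate 3 (0.0563) was left out. Cenpp had 7.88, 8.17 and 8.48 CPM in controls and 9.07, 11.4 and 8.77 CPM in fed cells. Its groups did not overlap, yet it missed the threshold (log2 fold change 0.26, 95% interval 0.035 to 0.48, adjusted p = 0.0613) and it reached the threshold when fed replicate 1 (0.0454) or fed replicate 3 (0.0326) was left out. Without fed replicate 2, its highest library, the log2 fold change was 0.13 (adjusted p = 0.391). Itgb3bp, which encodes the remaining subunit of this group and is not one of the 45, had a log2 fold change of 0.07 ± 0.12.

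The CENP-T-W-S-X group joins 4 histone-fold subunits, and differences between its genes were not tested. Cenpt, which links centromeric DNA to the outer kinetochore, rose by 0.49 ± 0.063 (adjusted p = 3.21e-06). Cenpw, its partner, had 6.26, 7.46 and 6.85 CPM in controls and 8.13, 7.91 and 7.58 CPM in fed cells. All fed libraries were above the controls, but the gene was not called (log2 fold change 0.20 ± 0.10, 95% interval -0.017 to 0.41, adjusted p = 0.138). Of the other pair, listed in the table as Apitd1 (CENP-S) and Stra13 (CENP-X), Apitd1 rose by 0.70 ± 0.12 and Stra13 had 0.14 ± 0.074, which did not pass. Cenpc1, the scaffold that contacts the CENP-A nucleosome, rose by 0.24 ± 0.061 (adjusted p = 0.00362).

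All 10 members of the outer kinetochore rose. The largest fold was that of Ska1, a subunit of the complex that keeps hold of shortening microtubules, with 6.90, 5.86 and 6.16 CPM in controls and 9.76, 11.0 and 10.7 CPM in fed cells (log2 fold change 0.74 ± 0.10, adjusted p = 6.66e-06). Ska3, of the same complex (chromosome 14, 57806561 to 57826185), had 14.0, 14.9 and 14.4 CPM in controls and 21.9, 22.6 and 21.8 CPM in fed cells. Neither gene had a fed library near the control range. Nsl1, a subunit of the MIS12 complex that bridges inner and outer layers, had 5.56, 4.96 and 5.79 CPM in controls and 9.02, 9.75 and 7.27 CPM in fed cells, a wider spread than most members (log2 fold change 0.67 ± 0.12, adjusted p = 0.000155).

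The other MIS12 subunits moved less. Dsn1 rose by 0.37 ± 0.081 and Mis12 by 0.27 ± 0.047. The NDC80 complex is the main microtubule coupler and is built from 4 different proteins in equal numbers. Its genes rose by 0.61 ± 0.055 (Spc25), 0.54 ± 0.065 (Ndc80), 0.37 ± 0.048 (Nuf2) and 0.36 ± 0.063 (Spc24), so the 95% intervals of Spc25 (0.50 to 0.73) and Spc24 (0.23 to 0.49) did not meet, though the difference between the genes was not tested. Zwint, which binds the scaffold KNL1, rose by 0.30 ± 0.039 (adjusted p = 3.55e-06).

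Among the members the corona is represented by Cenpe and Cenpf alone, the role group with no called member. Other corona genes, not among the members, were called higher. These were Spdl1, Kntc1, Zw10 and Zwilch, with log2 fold changes of 0.77, 0.44, 0.34 and 0.31. Cenpe, a kinesin that carries chromosomes to the spindle equator, had 48.7, 45.2 and 39.0 CPM in controls and 53.4, 47.8 and 48.6 CPM in fed cells. Fed replicates 2 and 3 lay within the control range, and the log2 fold change was 0.17 (95% interval 0.013 to 0.33, adjusted p = 0.0802). Cenpf, a large coiled-coil protein of the outer corona, had 58.4, 53.9 and 48.7 CPM in controls and 71.2, 60.2 and 55.3 CPM in fed cells. Here too the groups overlapped (log2 fold change 0.21, 95% interval -0.070 to 0.49, adjusted p = 0.206). Both calls were sensitive to the setting: Cenpe passed without control replicate 1 (adjusted p = 0.00814) and Cenpf without fed replicate 3 (0.0449) or by DESeq2 (0.0400). The log2 fold change fell to 0.089 for Cenpe without control replicate 3 and to 0.10 for Cenpf without fed replicate 1.

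**Figure D2:**
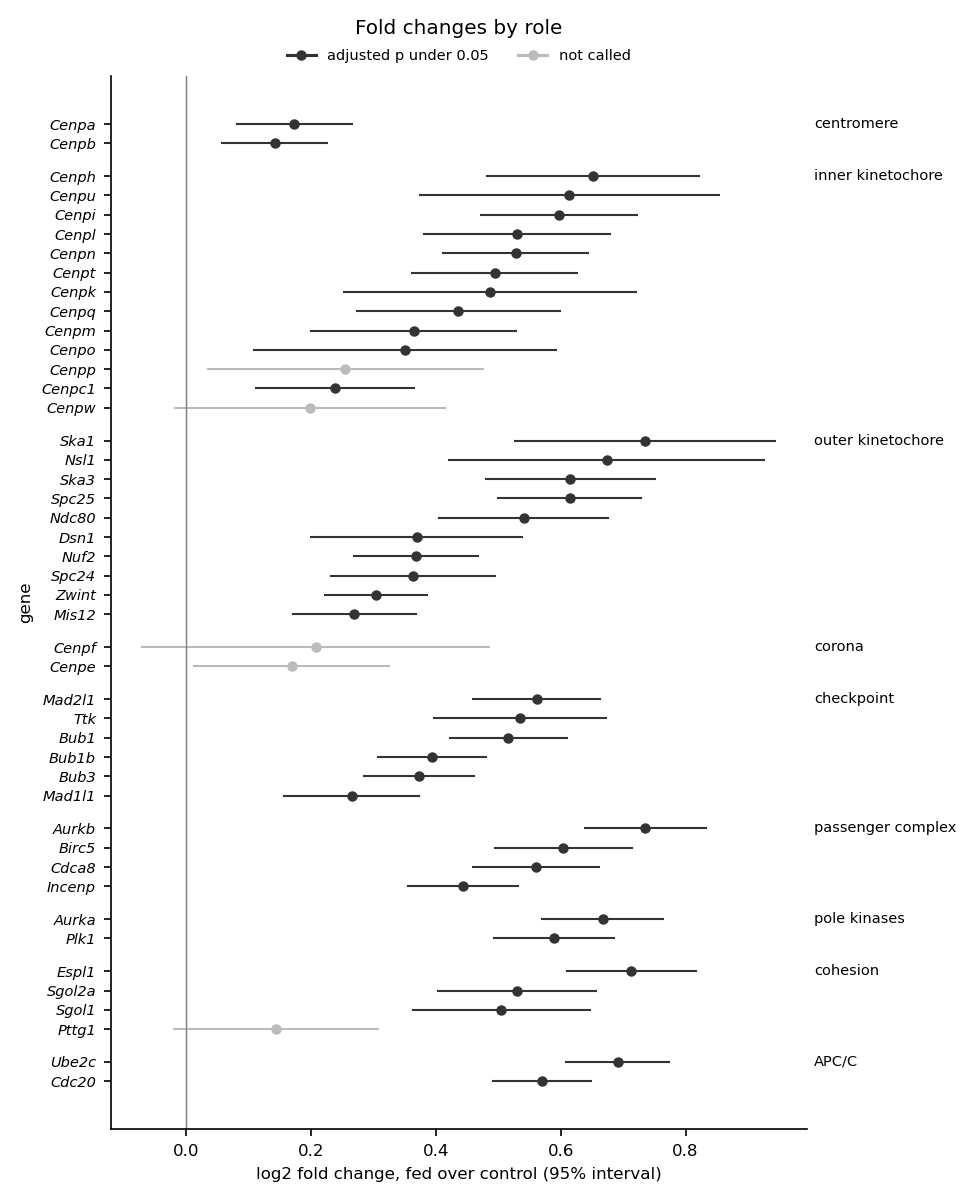
Log2 fold change of each member, fed over control, with its 95% interval from edgeR's quasi-likelihood fit (x axis), in role groups (y axis); black marks members with an adjusted p under 0.05 and grey those not called. All 45 points lie right of 0, from 0.14 (Cenpb) to 0.74 (Aurkb), and the grey points are Cenpp, Cenpw, Cenpf, Cenpe and Pttg1.

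Spindle checkpoint genes rose without exception among the 6 listed. Mad2l1, whose product captures CDC20 when kinetochores are unattached, had 55.5, 59.2 and 61.6 CPM in controls and 82.2, 91.7 and 85.9 CPM in fed cells (log2 fold change 0.56 ± 0.049, adjusted p = 2.15e-08). Ttk, the kinase MPS1 that starts checkpoint signalling, had 20.2, 19.4 and 21.6 CPM in controls and 30.1, 31.2 and 27.4 CPM in fed cells. Bub1, a checkpoint kinase that also marks centromeric histone H2A, had 50.6, 55.6 and 55.1 CPM in controls and 76.2, 77.9 and 76.5 CPM in fed cells. In each case the lowest fed library exceeded the highest control. Smaller rises were measured for Bub1b (BUBR1, 0.39 ± 0.042), Bub3 (0.37 ± 0.042) and Mad1l1 (MAD1, 0.27 ± 0.052), the last encoding the kinetochore anchor of MAD2.

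The chromosomal passenger complex corrects faulty attachments, and all 4 of its genes rose. Aurkb, its kinase (chromosome 11, 69045647 to 69051664), had 43.3, 43.3 and 46.3 CPM in controls and 71.6, 76.7 and 72.8 CPM in fed cells (log2 fold change 0.74 ± 0.046, adjusted p = 2.92e-10). Birc5, or survivin (chromosome 11, 117849251 to 117855743), had 60.1, 61.9 and 69.7 CPM in controls and 92.9, 102 and 96.2 CPM in fed cells. Cdca8, or borealin, had 46.2, 48.1 and 52.5 CPM in controls and 70.4, 74.1 and 71.8 CPM in fed cells. The groups were far apart for these 3 genes, with control replicate 3 the highest control each time. Incenp, the scaffold that binds the kinase, rose least (0.44 ± 0.042), and its 95% interval (0.36 to 0.53) did not meet that of Aurkb (0.64 to 0.83), a difference between genes that was not tested.

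Both kinases that act at spindle poles as well as kinetochores rose by at least 1.5-fold. Aurka (chromosome 2, 172356190 to 172370535), which drives spindle assembly, had 46.8, 45.1 and 44.3 CPM in controls and 74.1, 73.9 and 68.6 CPM in fed cells (log2 fold change 0.67 ± 0.046, adjusted p = 1.12e-09). Plk1, a kinase needed from mitotic entry to exit, had 103, 110 and 119 CPM in controls and 164, 173 and 163 CPM in fed cells (0.59 ± 0.046). No fed library approached the controls for either gene.

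Of the genes that protect or cut sister chromatid cohesion, 3 of 4 rose. Espl1 encodes separase, the protease that cleaves cohesin (chromosome 15, 102296266 to 102324357), and had 29.4, 30.8 and 30.1 CPM in controls and 49.9, 49.8 and 48.3 CPM in fed cells (log2 fold change 0.71 ± 0.049, adjusted p = 1.05e-09). Pttg1, which encodes securin, the inhibitor of separase, had 17.2, 21.4 and 21.3 CPM in controls and 22.4, 23.0 and 20.9 CPM in fed cells. Fed replicate 3 lay inside the control range of Pttg1, which was not called (log2 fold change 0.14, 95% interval -0.019 to 0.31, adjusted p = 0.154). Without control replicate 1 the log2 fold change of Pttg1 fell to 0.044, and the gene was again not called. The shugoshin genes, listed as Sgol1 and Sgol2a, guard centromeric cohesin and both rose. Sgol1 had 18.3, 16.4 and 17.8 CPM in controls and 25.0, 26.3 and 23.3 CPM in fed cells, and Sgol2a 29.7, 28.3 and 28.4 CPM against 41.9, 44.9 and 38.1 CPM, without overlap for either.

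The APC/C activator Cdc20 and the ubiquitin-conjugating enzyme Ube2c were among the members with the smallest p. Ube2c, which starts ubiquitin chains for the APC/C (chromosome 2, 164769898 to 164778822), had 82.3, 78.7 and 82.6 CPM in controls and 128, 130 and 135 CPM in fed cells. This was a log2 fold change of 0.69 ± 0.040 (adjusted p = 9.59e-11), rank 18 of the 13092 genes by p. Cdc20 had 105, 109 and 111 CPM in controls and 157, 164 and 161 CPM in fed cells (0.57 ± 0.038, adjusted p = 6.21e-10). Levels were also scaled to the merged length of all annotated exons of a gene, so their order depends in part on the annotation. On this scale Cdc20 ranked first in controls at 58.0 CPM per kb, followed by Plk1 at 50.4 and Cenpb at 44.2. Nsl1 ranked last at 1.03 CPM per kb.

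No source used here gives the strand setting of the counting, and exons of 14 members overlap an antisense gene, so reads of the partners cannot be told apart in full. Several partners were above their member in controls. Elovl1, antisense to Cdc20, had 121 CPM against 108 for Cdc20 and was called higher by 0.13. Adcy3, antisense to Cenpo, had 117 CPM against 11.7, and Sap18, antisense to Ska3, had 59.1 CPM against 14.4. Mut, antisense to Cenpq, had 32.2 CPM against 13.9. Derl2 (antisense to Mis12), Ppwd1 (Cenpk) and Primpol (Cenpu) were above their members too. Apart from Elovl1, none of these partners was called. Aspn, antisense to Cenpp, was called lower (log2 fold change -0.51, adjusted p = 0.0413). Tnnc2, antisense to Ube2c, had 0.111 CPM in controls. Cenpb overlaps Spef1 on its own strand, and Spef1 had 4.70 CPM in controls.

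Ratios of 2 genes within a library show whether they changed unequally, whatever the library's scale. The 6 pairs were chosen after their values were seen, so no test is given, and only changes of a ratio, not levels, are compared. The log2 ratio of Espl1 to Pttg1 was 0.77, 0.52 and 0.50 in controls and 1.16, 1.12 and 1.21 in fed cells, a rise of 0.57 without overlap. That of Aurkb to Incenp moved by 0.29, that of Cenpt to Cenpw by 0.29 and that of Bub1 to Bub3 by 0.14, all 3 without overlap. Cdc20 and Mad2l1, activator and inhibitor of the same ligase, had a log2 ratio of 0.92, 0.88 and 0.84 in controls and 0.94, 0.84 and 0.91 in fed cells, a difference of 0.01 within the spread. Against Cdc27, a core subunit of the APC/C and not one of the 45, the log2 ratio of Cdc20 rose from -0.17 ± 0.031 to 0.40 ± 0.074 (SD, n = 3).

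**Figure D3:**
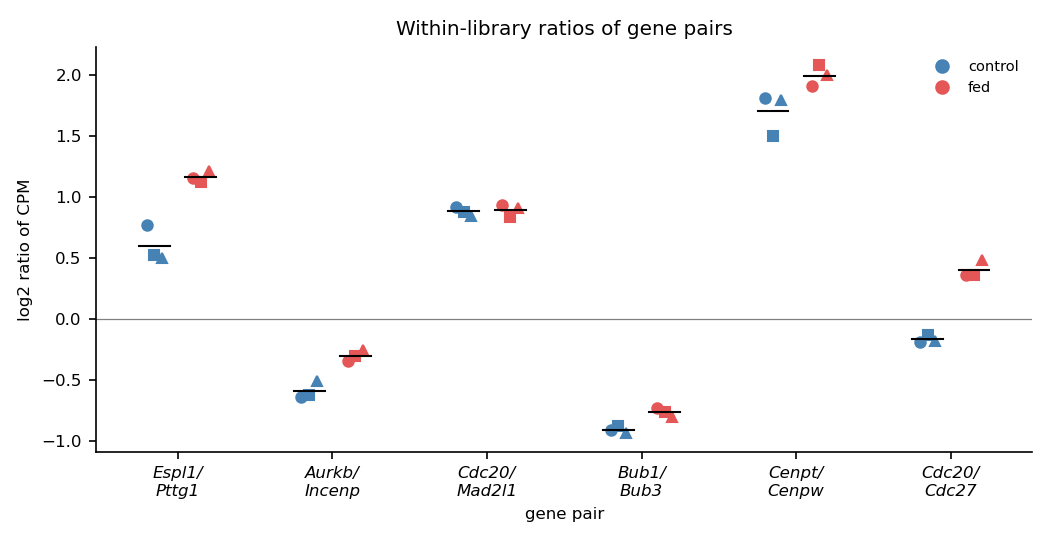
Log2 ratio of the CPM of 2 genes (y axis) for 6 pairs (x axis) in each library, with blue points for control, red for fed, symbols for replicates 1 (circle), 2 (square) and 3 (triangle), and a bar at each group mean. The groups separate for 5 pairs and coincide for Cdc20 and Mad2l1.

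Genes that work beside the members were read from 6 related lists, to be set against 20.5% of all genes higher and 19.0% lower. Of 16 genes of CENP-A loading and the remaining kinetochore subunits, 13 rose and 0 fell (median log2 fold change 0.36, all 16 above 0). Spdl1, which recruits dynein to kinetochores, went from 15.1 ± 1.23 to 25.8 ± 1.13 CPM (SD, n = 3), and Hjurp, the chaperone that deposits CENP-A, from 136 ± 3.45 to 176 ± 5.18 CPM. All 8 condensin genes rose (median 0.39), with Ncaph and Ncapg2, subunits of condensin I and II, higher by 0.56 and 0.52. Of 16 spindle assembly genes, 12 rose and 1 fell (median 0.43). Prc1, which bundles midzone microtubules, and Nusap1 rose by 0.59 and 0.64, while Numa1, which anchors microtubules at poles, fell from 136 ± 13.7 to 110 ± 4.86 CPM.

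In the APC/C and cohesin lists most genes were not called, or calls went both ways. Of 20 APC/C genes, 6 rose and 1 fell (median 0.07), against 20.5% and 19.0% of all genes. Whether the list differs from all genes was not tested. Fbxo5, which encodes the APC/C inhibitor EMI1, rose by 0.73 ± 0.073, and Trip13, the ATPase that takes apart checkpoint complexes, by 0.75 ± 0.076. Anapc13, a small core subunit, fell by 0.26. Among 13 cohesin genes, 5 rose and 3 fell (median 0.03), but 3 rose by DESeq2 or without control replicate 2 or fed replicate 2, and 1 fell without fed replicate 2 or fed replicate 3. Of all genes 20.5% rose and 19.0% fell, and a difference of the cohesin list from them was not tested. Cdca5, or sororin, which stabilises cohesion, rose from 18.3 ± 1.36 to 30.2 ± 0.887 CPM, and the core subunit gene Rad21 rose by 0.25. Nipbl, Mau2 and Stag2, the loader pair and a core subunit, were the 3 that fell.

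Regulators of late cell cycle transcription were mostly higher. Of 11 genes of FOXM1, MYBL2 and the DREAM complex, 8 rose and 1 fell (median 0.43). Foxm1, an activator of mitotic genes, rose from 112 ± 5.09 to 151 ± 4.41 CPM, and Tfdp1, the partner of E2F factors, from 93.2 ± 2.16 to 126 ± 3.45 CPM. Rbl2, the p130 pocket protein of DREAM, which represses these genes in resting cells, was the gene that fell, by 0.20. Rbl1, which encodes another pocket protein, rose by 0.64, and E2f4 rose by 0.20.

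**Figure D4:**
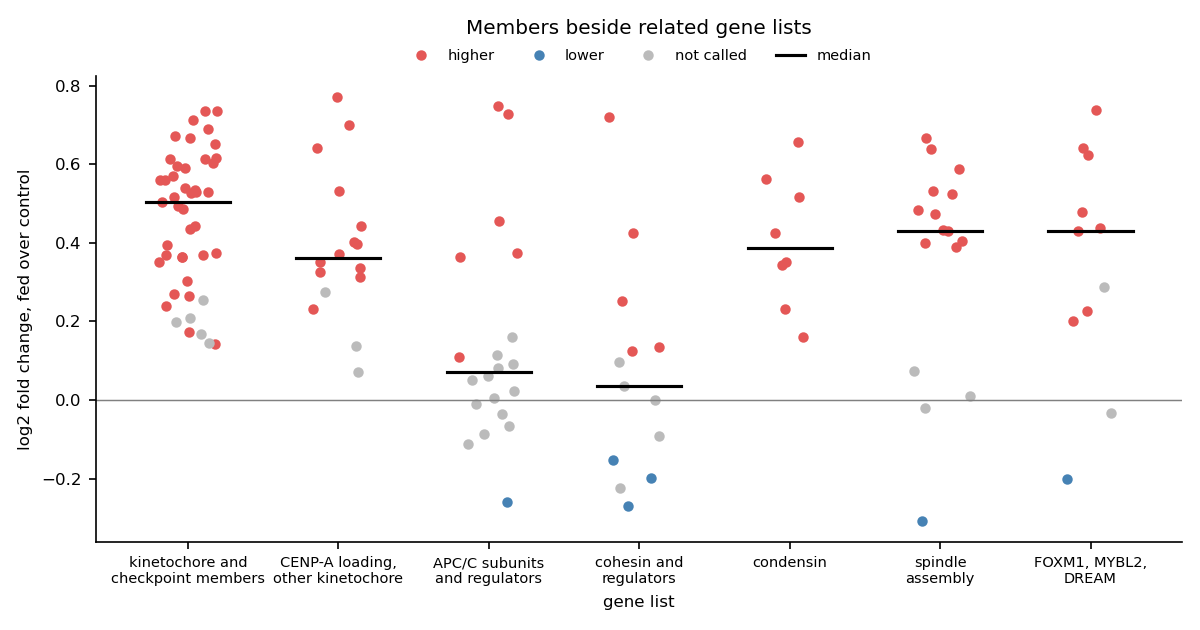
Log2 fold change, fed over control (y axis), of the 45 members and of 6 related gene lists (x axis); each point is a gene, red called higher, blue called lower and grey not called, and bars are medians. Medians were 0.51 for the members, 0.36 for CENP-A loading and other kinetochore genes, 0.07 for the APC/C, 0.03 for cohesin, 0.39 for condensin and 0.43 for spindle assembly and for the FOXM1, MYBL2 and DREAM list.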

How the data were processed

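The deposited table holds raw counts per gene symbol for 6 libraries. The submitters' processing notes name GRCm38 as the build and list STAR 2.6.0c, Trimmomatic 0.36, Subread 1.6.1 (featureCounts) and MultiQC 1.5. No source used here gives the annotation release or strand setting. Names that read as dates (27, 0.227% of counts) stayed in the totals.

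The fit used edgeR 4.0.16 in R 4.3.3 (filterByExpr, TMM, robust quasi-likelihood F-test, no replicate block) on the whole table, with Benjamini-Hochberg adjustment over 13092 genes and a threshold of 0.05. Standard errors derive from the F statistic. The script was tested on 1 simulated data set, where 18 of the 171 genes called were unchanged. That is a larger share of false calls than the threshold of 0.05 aims at. Recovery in the same data set was 40% at a log2 change of 0.25, 72% at 0.5 and 95.9% at 1, so small changes were often missed there. The share missed in the measured libraries was not tested. DESeq2 1.42.0, limma-voom (limma 3.58.1), other scalings and filters, a replicate block and each library left out were alternatives. Coordinates and exon lengths are from GENCODE M21 (GRCm38), and promoters from RefSeq. Libraries of a group differed by more than sampling noise.

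Members and lists were chosen with earlier results of these data known. Values per library are given for up to 3 called members per role with the largest fold change and for each not called. Of each related list, up to 2 called genes with the smallest p are named, with means or fold changes. Other genes named were chosen after their values were seen.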

Additional observations from a re-analysis of the deposited data

How the results depend on the processing

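The 45 members were called higher 40 times in the reported fit and 39 to 43 times over 15 alternatives, and 0 were lower in any. Leaving out 1 library gave 39 to 41. No log2 fold change of a member changed sign in 675 refitted values; 5 values of 2 members (Cenpb and Cenpo) lost the call and 13 values of 3 members (Cenpp, Cenpe and Cenpf) gained it. With no filter on low counts Cenpp, Cenpe and Cenpf passed (adjusted p = 0.0413, 0.00403 and 0.000385), and with library totals only Cenpp and Cenpe did (0.0357 and 0.0244); the cause was not tested. The replicate number as a block gave 43 higher, with Cenpp at 0.0358, Cenpe at 0.00273 and Cenpf at 7.8e-05. Over all genes the block gave 2989 higher and 2859 lower, against 2682 and 2493 in the reported fit. Same-numbered libraries deviated together weakly (r = 0.101, 0.022 and 0.128 across genes). Differently numbered libraries had r from -0.115 to 0.0271. The labels do not say that numbers pair libraries, so they were not taken as pairs, and whether they do was not settled. For cohesin genes, DESeq2 gave 3 higher, and leaving out 1 library gave 3 to 6 higher and 1 to 3 lower. Standard errors were largest, at 0.10 to 0.12, for Cenpk, Cenpo, Cenpp, Cenpu, Cenpw, Nsl1, Ska1 and Cenpf, and what sets them was not tested.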
